A study of Rattus norvegicus with 9 samples.

Results

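Dlx3 (ENSRNOG00000004278), Dlx4 (ENSRNOG00000004399) and Dlx5 (ENSRNOG00000010905) are 3 distal-less homeobox genes, taken by name from the 26249 genes and annotated units of the data, and their summed levels and isoforms were followed through 9 mRNA-seq libraries. The cells were mesenchymal stem cells (MSCs) from the bone marrow of 4-week-old Sprague-Dawley rats, used at passage 3. Untreated MSCs (3 libraries) were compared with neural progenitor-like cells induced from them for 3 days with EGF and bFGF, at 20 ng/ml each (NPCs, 3 libraries), and with cells that received IGF1 beside EGF and bFGF over the same 3 days (the IGF1 group, 3 libraries). Neither the labels nor the paper's methods state the IGF1 dose. The 2 induced groups were also moved to a neural stem cell medium and to low-attachment plates, so growth factors, medium and suspension culture cannot be told apart. The sources call the replicates biological and name 3 rats, but do not say which library came from which rat.

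The Dlx genes encode homeodomain transcription factors related to the Distal-less gene of the fly, and in mammals they lie in pairs that are transcribed towards each other: Dlx1 with Dlx2, Dlx3 with Dlx4, and Dlx5 with Dlx6. Dlx5 is an osteoblast regulator that acts on bone matrix genes and responds to bone morphogenetic proteins (BMPs), and Dlx3 is needed in placenta, hair, teeth, bone and the upper epidermis. Dlx1, Dlx2, Dlx5 and Dlx6 also act in forebrain interneurons, whereas Dlx4 is the least studied of the family and is best known from placenta and blood cells.

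The level used here is FPKM, a count of fragments that is divided by transcript length and by the depth of the library, added over the isoforms of a gene. Because FPKM is scaled by length, levels of different genes can be set side by side. The width of the deposited 95% intervals implied 40.4 to 53.0 M reads per library. Of the 8 MSC markers chosen, 2 could be named in the files: vimentin (Vim) and integrin beta 1 (Itgb1) together lay at 3556 to 4059 FPKM in MSCs, 929 to 1082 in NPCs and 857 to 1054 in the IGF1 group. Of the 8 neural progenitor markers, 4 could be named: nestin (Nes), Msi1, Prom1 and Fabp7 together lay at 0.942 to 1.35 FPKM in MSCs, 0.560 to 0.764 in NPCs and 0.711 to 0.993 in the IGF1 group, and Fabp7 was listed at 0 in every library. Nes was 0.117 ± 0.0551 FPKM in MSCs, 0.305 ± 0.0200 in NPCs and 0.294 ± 0.0328 in the IGF1 group (SD, n = 3 each), without overlap with MSCs. On the scale of log2(FPKM + 0.1) its differences were 0.89 (limma adjusted p = 0.0429) and 0.85 (limma adjusted p = 0.0248), under the size of 1 that a call needs. The added 0.1 is close to the MSC level of Nes, so this scale understates its change. Msi1 did not pass either, and Prom1, a membrane protein of stem cells, fell by 2.56 on the log2 scale in NPCs (limma, adjusted p = 0.000529). These libraries are of bulk RNA, in which fewer cells of a type and less RNA per cell cannot be told apart.

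Between MSCs and NPCs the 3 genes changed places. Dlx3 and Dlx4 were near the lower limit of measurement in MSCs and rose, while Dlx5, the highest of the 3 in MSCs, fell. All 3 differences passed the test (adjusted p at most 0.05 and a change of at least 1 on the log2 scale). Over all 13677 genes tested, 11.4% were called higher in NPCs and 10.1% lower. The groups did not overlap for any of the 3 genes, against 25.2% of all genes tested that lay wholly higher in NPCs and 25.8% that lay wholly lower. The gene IDs of all 3 come with names only from tables of the study that were chosen for a difference between NPCs and MSCs in these same samples, so these calls are not independent evidence of that difference.

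**Figure D1:**
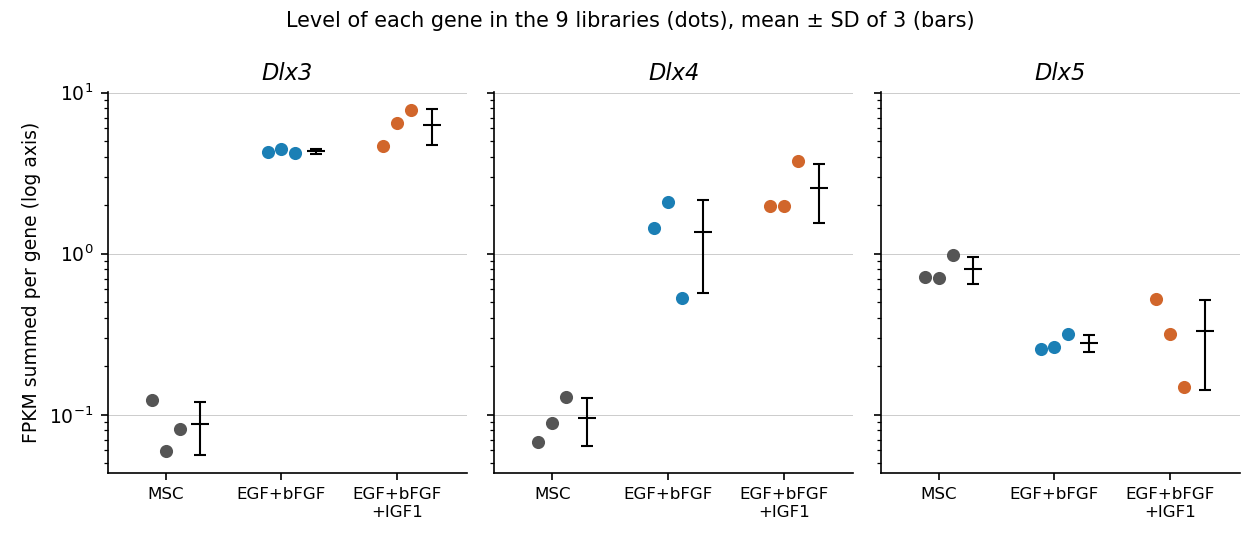
FPKM of Dlx3, Dlx4 and Dlx5 summed over isoforms, on a log axis shared by the 3 panels, in MSCs, in cells induced with EGF+bFGF and in cells induced with EGF+bFGF+IGF1; each dot is 1 library and the bar beside it is the mean ± SD of 3. Dlx3 and Dlx4 lie at or below 0.130 in every MSC library and at or above 0.534 in every induced library, whereas Dlx5 lies at or above 0.705 in MSCs and at or below 0.525 in the others.

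Dlx3 lies on chromosome 10 at 82748717 to 82754094, on the plus strand, in the coordinates of the files, for which the labels name no genome build. Its annotated transcript has 3 exons and 2624 bases. Its level was 0.123, 0.0595 and 0.0818 FPKM in the 3 MSC libraries, 4.26, 4.49 and 4.20 in the NPC libraries, and 4.65, 6.47 and 7.78 in the IGF1 libraries. Every MSC library was low and every induced library high, and relative to their mean the 3 NPC libraries lay closer together than those of the other groups. The MSC values rest on 13, 8 and 7 reads by the interval of each value, against 462, 439 and 518 reads in the NPCs. The means were 0.0881 ± 0.0322 (SD, n = 3) in MSCs and 4.32 ± 0.153 (SD, n = 3) in NPCs, a ratio of 49.0. On the scale of log2(FPKM + 0.1), which understates the change of low genes, Dlx3 rose by 4.51 (SE 0.24, 95% interval 3.94 to 5.07, limma adjusted p = 3.52e-05). Among genes with an ID and a level above 0, Dlx3 stood at percentile 14.2 to 21.4 of the MSC libraries and 57.1 to 59.2 of the NPC libraries.

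Dlx4 lies on the same chromosome at 82769562 to 82774553, on the minus strand, with an annotated transcript of 3 exons and 1226 bases. It faces Dlx3, and the 3′ ends of the pair are 15468 bases apart. Its level was 0.0676, 0.0892 and 0.130 FPKM in MSCs, 1.44, 2.09 and 0.534 in NPCs, and 1.97, 1.98 and 3.74 in the IGF1 group. No induced library came as low as an MSC library, but NPC replicate 3 lay well below the others that were induced. In MSCs the gene rested on 3, 5 and 6 reads. The means were 0.0955 ± 0.0315 in MSCs and 1.36 ± 0.782 in NPCs (SD, n = 3 each), a ratio of 14.2. The fitted rise was 2.67 (SE 0.45, 95% interval 1.62 to 3.72, limma adjusted p = 0.00405). Without NPC replicate 3 it was 3.16, and in the leave-one-out fits it did not go below 2.30.

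Dlx5 lies on chromosome 4 at 32255323 to 32259589, on the minus strand, and has 3 exons and 1390 bases. Its level was 0.716, 0.705 and 0.983 FPKM in MSCs, 0.256, 0.265 and 0.319 in NPCs, and 0.525, 0.316 and 0.149 in the IGF1 group. All MSC libraries were above all induced ones, and the IGF1 libraries spread over a wider range than the NPCs on either side of them. The values rest on 39.5, 47.5 and 52.7 reads in MSCs and on 13, 13 and 19 reads in NPCs. The means were 0.801 ± 0.157 in MSCs and 0.280 ± 0.0339 in NPCs (SD, n = 3 each), so that the MSC mean was 2.86 times the NPC mean. The gene fell by 1.30 (SE 0.28, 95% interval -1.95 to -0.65, limma adjusted p = 0.0105). With a pseudocount of 1, which exceeds the gene's own level, the fall was 0.52 and no longer passed the threshold on size, and in a fit to annotated transcripts only it was -1.20 and missed the other threshold (limma adjusted p = 0.0945).

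The IGF1 group showed the same 3 calls against MSCs. This comparison uses the same MSC libraries as the one with NPCs, so the 2 sets of calls are not independent. Over the 14208 genes tested, 11.5% were called higher and 9.82% lower than in MSCs. The 3 genes again did not overlap between the groups, against 27.8% of all genes tested that lay wholly higher and 27.3% that lay wholly lower. Dlx3 averaged 6.30 ± 1.57 FPKM (SD, n = 3) in the IGF1 group and rose by 5.01 (SE 0.24, limma adjusted p = 1.58e-06), and Dlx4 averaged 2.56 ± 1.02 and rose by 3.65 (SE 0.45, limma adjusted p = 0.000287). The Dlx4 call was lost with annotated transcripts only (0.38, limma adjusted p = 0.728). The ratios of the means to those of MSCs were 71.5 for Dlx3 and 26.9 for Dlx4.

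Dlx5 averaged 0.330 ± 0.188 FPKM (SD, n = 3) in the IGF1 group and fell by 1.23 against MSCs (SE 0.35, limma adjusted p = 0.0213). That call was lost without MSC replicate 3 (-1.04, limma adjusted p = 0.0700), without IGF1 replicate 2 (-1.25, limma adjusted p = 0.0535) and without IGF1 replicate 3 (-0.89, limma adjusted p = 0.0672), so it is near the threshold. Of these 3 fits, only the one without IGF1 replicate 3 brought the size of the fall under 1. The call was also lost with a pseudocount of 1 (-0.48) and with annotated transcripts only (-1.14, limma adjusted p = 0.114). The IGF1 values rest on 32, 17 and 8 reads.

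**Figure D2:**
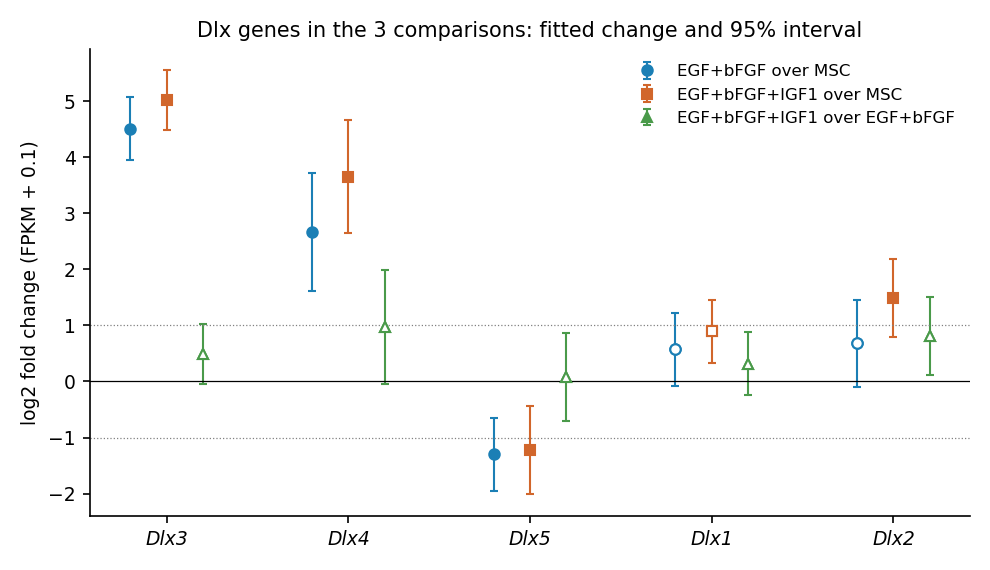
Fitted log2 fold changes on the scale of log2(FPKM + 0.1) with 95% intervals for the Dlx genes named in the files, in 3 comparisons; filled symbols passed the test, open symbols did not, and dotted lines mark changes of 1. Dlx3 and Dlx4 lie above and Dlx5 below the dotted lines against MSCs, Dlx2 is filled only for EGF+bFGF+IGF1 over MSC, and no symbol is filled between the 2 induced groups.

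Between the 2 induced groups none of the 3 genes passed the test. Only 3 of all genes tested were called there (0.0211%). Dlx3 was higher in every IGF1 library than in every NPC library, a pattern held by 5.1% of all genes tested, with a ratio of means of 1.46 and a fitted difference of 0.49 (SE 0.24, 95% interval -0.04 to 1.02, limma adjusted p = 1, unadjusted 0.0657). Dlx4 differed by 0.97 (SE 0.45, 95% interval -0.04 to 1.98, limma adjusted p = 1, unadjusted 0.0576), and its groups overlapped. Dlx5 differed by 0.07 (SE 0.35, 95% interval -0.71 to 0.86, limma adjusted p = 1). At an unadjusted p of at most 0.05, 0 of the 3 genes and 4.58% of all genes tested would have passed. The intervals of Dlx3 and Dlx4 reach past a difference of 1, and that of Dlx5 stays within it.

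The balance of the 3 genes can also be read inside each library, where it needs no scaling between libraries. These shares restate the same values, and a rise of Dlx3 and Dlx4 lowers the share of Dlx5 even where Dlx5 stays the same. Of the FPKM of the 3 genes together, Dlx5 made up 79.0, 82.6 and 82.3% in the MSC libraries, 4.30, 3.87 and 6.31% in the NPC libraries, and 7.34, 3.61 and 1.28% in the IGF1 libraries. Dlx3 made up 6.85 to 13.6% in MSCs, 65.6 to 83.1% in NPCs and 65.1 to 73.8% in the IGF1 group. Dlx4 took 7.45 to 10.9%, 10.6 to 30.6% and 22.6 to 32.0% in the same order. In MSCs Dlx3 and Dlx4 had no fixed order, since Dlx3 was the higher in replicate 1 only. In all 6 induced libraries the order of these sums was Dlx3, then Dlx4, then Dlx5. The place of Dlx4 depends on its unannotated isoforms. With annotated transcripts only it lay below Dlx5 in IGF1 replicates 1 (0.329 against 0.525 FPKM) and 2 (0 against 0.316). It stayed above Dlx5 in IGF1 replicate 3 and in the NPC libraries. The level of Dlx3 over that of Dlx5 was 0.0833 to 0.172 in MSCs, 13.2 to 17.0 in NPCs and 8.86 to 52.1 in the IGF1 group. The widest ratio, in IGF1 replicate 3, combined the highest Dlx3 and the lowest Dlx5 value of all induced libraries.

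The isoforms differed between the genes. Dlx5 was listed in all 9 libraries as its annotated transcript alone, and no unannotated transcript lay within 10 kb of it. Dlx3 was listed as its annotated transcript alone in 8 libraries. In IGF1 replicate 3, the library with the most Dlx3, a second isoform held 1.33 FPKM (95% interval 1.01 to 1.65), or 17.1% of the gene. It shared exons 1 and 2, ended exon 3 short by 524 bases and joined it to an added exon of 173 bases at 82755561 to 82755733, past the annotated 3′ end.

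Dlx4 was the gene whose isoforms varied most. The annotated transcript was the only isoform in the 3 MSC libraries and in NPC replicate 3, the libraries of the lowest Dlx4 level. It made up 63.9 and 68.2% of the gene in NPC replicates 1 and 2, but 16.6, 0 and 7.27% in the IGF1 libraries. The other share came from isoforms that the assembly built without a counterpart in the annotation.

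**Figure D3:**
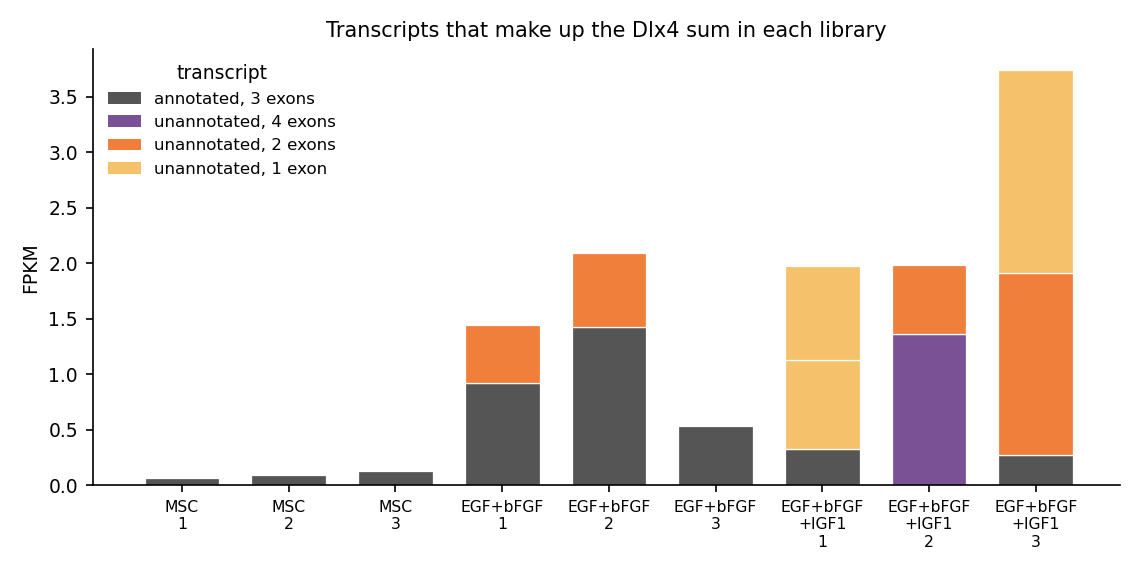
FPKM of each transcript that enters the Dlx4 sum, stacked for each of the 9 libraries and coloured by annotation and number of exons. The annotated transcript makes up the whole of the MSC libraries and of EGF+bFGF replicate 3, most of EGF+bFGF replicates 1 and 2, and at most 16.6% of the EGF+bFGF+IGF1 libraries.

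A 2-exon isoform of Dlx4 recurred in 4 libraries (NPC replicates 1 and 2 and IGF1 replicates 2 and 3), at 0.520, 0.664, 0.615 and 1.64 FPKM. In each of them it used the annotated junction from exon 1 to exon 2, began 74, 73, 85 and 80 bases before the annotated start, and ran on from exon 2 into the next intron by 138, 187, 267 and 106 bases. IGF1 replicate 1 held no such isoform, but a single-exon transcript over exon 1 there began 82 bases before the annotated start. So every induced library except NPC replicate 3 held a Dlx4 transcript that began 73 to 85 bases before the annotation, and no MSC library did, at the 3 to 6 reads the gene had there. Single-exon transcripts covered exon 3 in IGF1 replicates 1 and 3, at 0.799 and 1.83 FPKM.

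A 4-exon isoform of Dlx4 took 1.37 FPKM (95% interval 1.03 to 1.70) in IGF1 replicate 2, where the annotated transcript was listed at 0. It held all 1226 annotated exonic bases, began 85 bases before the annotated start and added a last exon of 87 bases at 82768206 to 82768292, which is 1270 bases past the annotated 3′ end of Dlx4. The upstream starts and the added exons came from the authors' assembly, and no sequence was read for them here.

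How these isoforms are counted sets the size of the Dlx4 values in the IGF1 group. A sum of FPKM counts 2 partial transcripts of different exons as fully as 2 whole ones. With each transcript weighted by its length over that of the annotated one, Dlx4 was 1.17, 1.99 and 2.48 FPKM in the IGF1 group and 1.22, 1.84 and 0.534 in NPCs. The rises against MSCs were then 2.54 in NPCs (limma adjusted p = 0.00253) and 3.22 in the IGF1 group (limma adjusted p = 0.000281), and both stayed called. With annotated transcripts only, Dlx4 was 0.329, 0 and 0.272 FPKM in the IGF1 group and 0.922, 1.43 and 0.534 in NPCs. The change in the IGF1 group was then 0.38, as given above, and the difference between the induced groups turned to -2.00.

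Between Dlx3 and Dlx4, where the files hold 0 annotated transcripts, every induced library listed unannotated single-exon transcripts on the strand of Dlx4, past its 3′ end. There were 4, 5 and 4 of them in the NPC libraries and 7, 3 and 2 in the IGF1 libraries, and 0 in each of the 3 MSC libraries. They covered 1781, 2014 and 1450 bases in NPCs and 2130, 1777 and 1736 bases in the IGF1 group, and all lay 1251 to 4099 bases past the Dlx4 end. The reads they imply came to 79, 120 and 69.7 per NPC library and 102, 106 and 97.5 per IGF1 library. By the same rule the reads of Dlx4 itself were 44.1, 62.5 and 29 in NPCs and 41.2, 77.4 and 86.6 in the IGF1 group. The rule can give too few reads where a gene has several isoforms. The annotated Dlx3 transcript had a coverage of 15.2 in IGF1 replicates 2 and 3. It implied 704 reads in replicate 2, but 498 in replicate 3, where a second isoform was listed. Of the induced libraries only NPC replicate 3 held a single Dlx4 isoform, with 29 reads against 69.7 downstream. The others cannot be ranked this way. The whole files differ in the same direction, with 28763 to 36570 unannotated transcripts in an MSC library and 64618 to 90998 in an induced one.

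**Figure D4:**
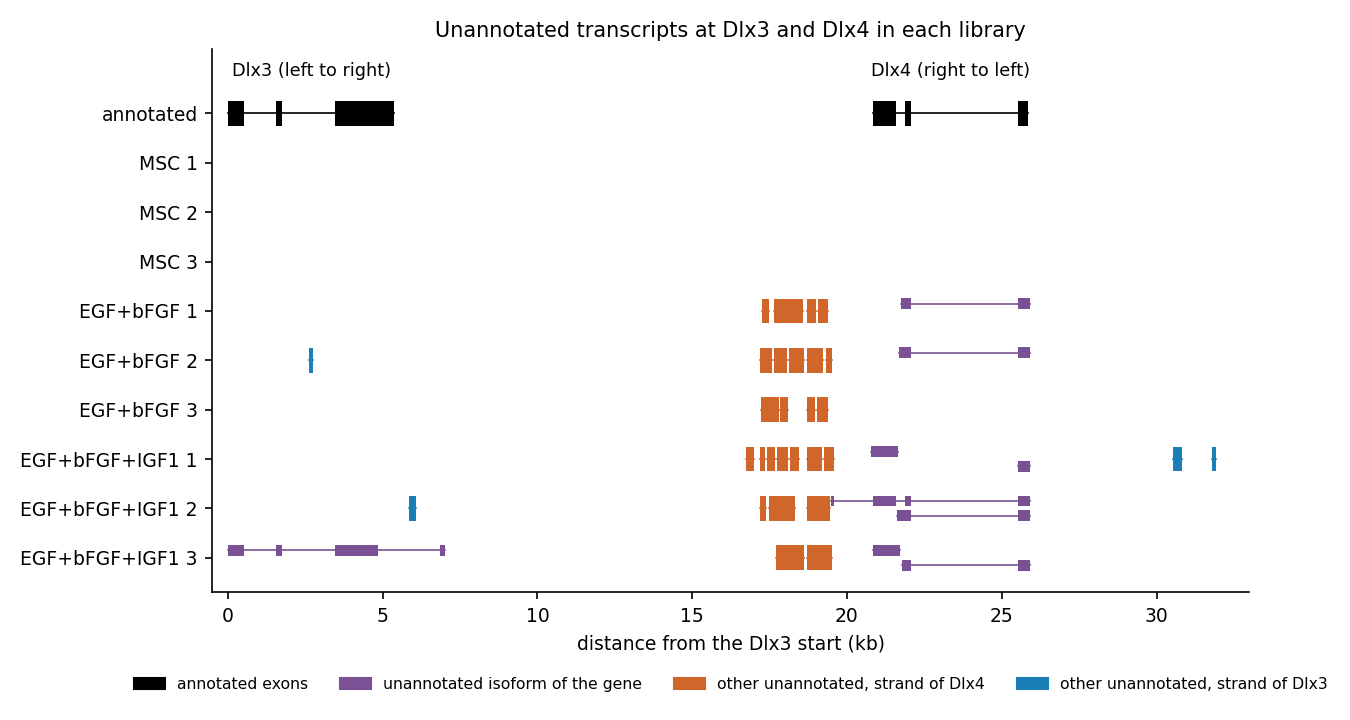
Map of the Dlx3 and Dlx4 region in kb from the Dlx3 start, with the annotated exons on top and, in a row for each library, the unannotated isoforms of the genes and the other unannotated transcripts by strand. The 3 MSC rows are empty, and each of the 6 induced rows has transcripts on the strand of Dlx4 in a stretch 1251 to 4099 bases past its 3′ end.

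The added last exon of the 4-exon Dlx4 isoform lies in this stretch. In 3 other libraries, downstream transcripts covered bases of that exon: 41 bases in NPC replicate 2, 87 in IGF1 replicate 1 and 41 in IGF1 replicate 3. The downstream transcripts entered no Dlx4 sum, since they touch no annotated exon. The files list unannotated transcripts only where enough reads were assembled, so 0 in MSCs is not a measure of absence. The implied depth was 44.3 to 53.0 M reads in MSCs and 40.4 to 50.2 M in the induced libraries. A few other unannotated transcripts lay near the pair on the strand of Dlx3, namely 120 bases in an intron of Dlx3 in NPC replicate 2, 1 past the Dlx3 end in IGF1 replicate 2 and 2 beyond Dlx4 in IGF1 replicate 1.

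Of 6 members of the Dlx family 5 could be named, and Dlx6 was not among the names. Dlx1 was 0.143, 0.127 and 0.193 FPKM in MSCs, 0.306, 0.358 and 0.222 in NPCs, and 0.329, 0.437 and 0.412 in the IGF1 group. Every induced library lay above every MSC library, but the differences were 0.57 (SE 0.28, limma adjusted p = 0.151) in NPCs and 0.89 (SE 0.25, limma adjusted p = 0.0203) in the IGF1 group, and neither reached a size of 1. The scale of log2(FPKM + 0.1) understates changes at levels as low as those of Dlx1 and Dlx2. The Dlx1 means were 0.154 FPKM in MSCs, 0.295 in NPCs and 0.393 in the IGF1 group.

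Dlx2 was 0.0605, 0.1003 and 0.163 FPKM in MSCs, 0.158, 0.283 and 0.294 in NPCs, and 0.385, 0.539 and 0.596 in the IGF1 group. The NPC libraries overlapped the MSCs, while the IGF1 libraries lay above both. The difference was 0.68 in NPCs (SE 0.33, limma adjusted p = 0.152), and in the IGF1 group Dlx2 rose by 1.49 (SE 0.31, limma adjusted p = 0.00483). Between the induced groups it was 0.81 (SE 0.31, limma adjusted p = 1, unadjusted 0.0272), which did not pass. In all, 2 of the 5 named family members were called higher and 1 lower in NPCs, and 3 higher and 1 lower in the IGF1 group, with a median change over the 5 of 0.68 and 1.49. Over all genes tested the shares were 11.4% higher and 10.1% lower in NPCs and 11.5% and 9.82% in the IGF1 group. The 3 called in NPCs are those named through tables chosen for that difference, and of Dlx1 and Dlx2, which were not, 0 of 2 were called in NPCs and 1 of 2 in the IGF1 group.

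Genes that work with or around the Dlx factors could be named for a few members of each list. Of 7 Msx factors and Dlx partners 1 was named, necdin (Ndn), which fell by 1.41 in NPCs (limma adjusted p = 0.00847) and by 1.32 in the IGF1 group. Of 8 BMP ligands 1 was named, Bmp3, which went from 13.2 ± 1.82 FPKM in MSCs to 0.456 ± 0.221 in NPCs and 0.406 ± 0.121 in the IGF1 group (SD, n = 3 each) and fell by 4.71 and 4.82. Follistatin (Fst), a BMP antagonist, went from 9.43 ± 0.962 FPKM in MSCs to 1.55 ± 0.505 in NPCs and 2.06 ± 0.0938 in the IGF1 group (SD, n = 3 each), with changes of -2.64 and -2.23, both called. Smad9, the 1 named of 6 Smad transducers, stood at 1.06 ± 0.0532 FPKM in MSCs and 1.05 ± 0.232 in NPCs and was not called (-0.10, limma adjusted p = 0.775). No BMP receptor of 7 and no BMP response gene of 6 could be named, so no values are given for them.

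Of 16 osteoblast genes, 3 were named, too few to speak for the list, and 1 of them was called higher. Over all genes tested the share called higher was 11.4% in NPCs and 11.5% in the IGF1 group. Dmp1, a matrix protein of osteocytes and dentin, was 0.0187, 0.0736 and 0.0289 FPKM in MSCs, 3.40, 1.44 and 0.616 in NPCs and 1.30, 1.01 and 0.498 in the IGF1 group, and rose by 3.45 (limma adjusted p = 0.00281) and 2.78. Bone sialoprotein (Ibsp) and Mepe, the other two, did not pass the test in either comparison, with differences of -1.14 and 0.73 in NPCs. Of 14 epidermal and placental genes 1 was named, Grhl3, an epidermal transcription factor, at 0.0590 ± 0.00529 FPKM in MSCs, 0.575 ± 0.0863 in NPCs and 0.726 ± 0.248 in the IGF1 group (SD, n = 3 each). It rose by 2.03 and 2.29. Of 9 interneuron genes, Gad1 and Sst were named, and neither exceeded 0.110 FPKM in a library or entered a test. Ndn, Fst and Grhl3, and among the cell type markers Vim, Itgb1, Nes, Cd68 and Vwf, owe their names to tables chosen on these samples.

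Markers of other cell types moved with Dlx3 in part. Of 6 leukocyte markers 2 were named. Cd68, a lysosomal protein of macrophages that other cells also make, went from 0.226 to 0.502 FPKM in MSCs to 9.54 to 11.4 in NPCs and 8.93 to 14.4 in the IGF1 group, and rose by 4.55 and 4.57. Ptprc, the defining surface protein of leukocytes, was listed at 0 in the 3 NPC libraries and reached at most 0.0142 FPKM in any library. Of 6 endothelial markers, Vwf alone was named, at 0.0177 ± 0.00884 FPKM in MSCs and 0.345 ± 0.155 in NPCs (SD, n = 3 each), and it rose by 1.83. In the IGF1 group it was 0.141 ± 0.0692 FPKM (SD, n = 3), wholly below the NPCs and wholly above the MSCs. Its difference from the NPCs, -0.88 (limma, unadjusted p = 0.0246), did not pass the test. An unadjusted p of at most 0.05 was held by 4.58% of all genes tested there. Its difference from MSCs, 0.97 (limma adjusted p = 0.0421), was not called because it missed the size of 1. The added 0.1 exceeds the MSC level of Vwf, so log2(FPKM + 0.1) understates that change. Of 6 epithelial markers Cldn4 alone was named, at no more than 0.0432 FPKM. The part of other cell types in the Dlx values was not tested beyond these levels.

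Few genes beside the loci could be set against the Dlx genes. Within 250 kb of Dlx3 and Dlx4 the annotation holds 8 other genes with an ID, of which 6 were tested in NPCs against MSCs, and their differences ran from -0.68 to 1.36. The 1 called was Fam117a, 189634 bases away, which was 2.24 FPKM on average in MSCs, 6.17 in NPCs and 5.82 in the IGF1 group. It rose by 1.36 (limma adjusted p = 0.00144) and 1.24. Over all genes tested, 11.4% were called higher and 10.1% lower in NPCs, so 1 call among 6 genes does not set the locus apart. Within the same distance of Dlx5 there were 2 genes, of which 1 was tested and not called (0.46).

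The named genes whose pattern was most like that of each Dlx gene were found among 1836 named candidates other than the 3 genes, by the root mean square difference between log2 profiles over the 9 libraries after centring each profile on its mean. For Dlx3 they were Abcg1 (0.28), a cholesterol exporter, Cd68 (0.29), Egfl8 (0.34), Slco2b1 (0.39), an organic anion transporter, and Il16 (0.43), a cytokine. Abcg1 averaged 0.994 FPKM in MSCs, 21.0 in NPCs and 27.3 in the IGF1 group. For Dlx4 they were Gsc (0.43), the homeobox gene goosecoid, Gdpd2 (0.44), Inka2 (0.45), Gem (0.45), a small GTPase, and Ccl11 (0.45), a chemokine. Gsc averaged 0.0365 FPKM in MSCs, 0.847 in NPCs and 1.09 in the IGF1 group.

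For Dlx5 the nearest patterns were Egfl6 (0.20), Atcay (0.20), AABR07040622.1 (0.24), Kcnj8 (0.24), a potassium channel subunit, and Mpp6 (0.24). All of them, like Dlx5, had their highest mean in MSCs. Of the candidates 47.7%, and of the 15 genes listed 11, were named only through tables chosen for a difference between NPCs and MSCs, so the pool was rich in genes with such a step. Dlx3 and Dlx4 differed from each other by 0.92 on this measure, and Dlx5 differed from Dlx3 by 2.90 and from Dlx4 by 2.24. The 5 nearest genes were picked for the smallest differences, so they are no yardstick for these values.

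**Figure D5:**
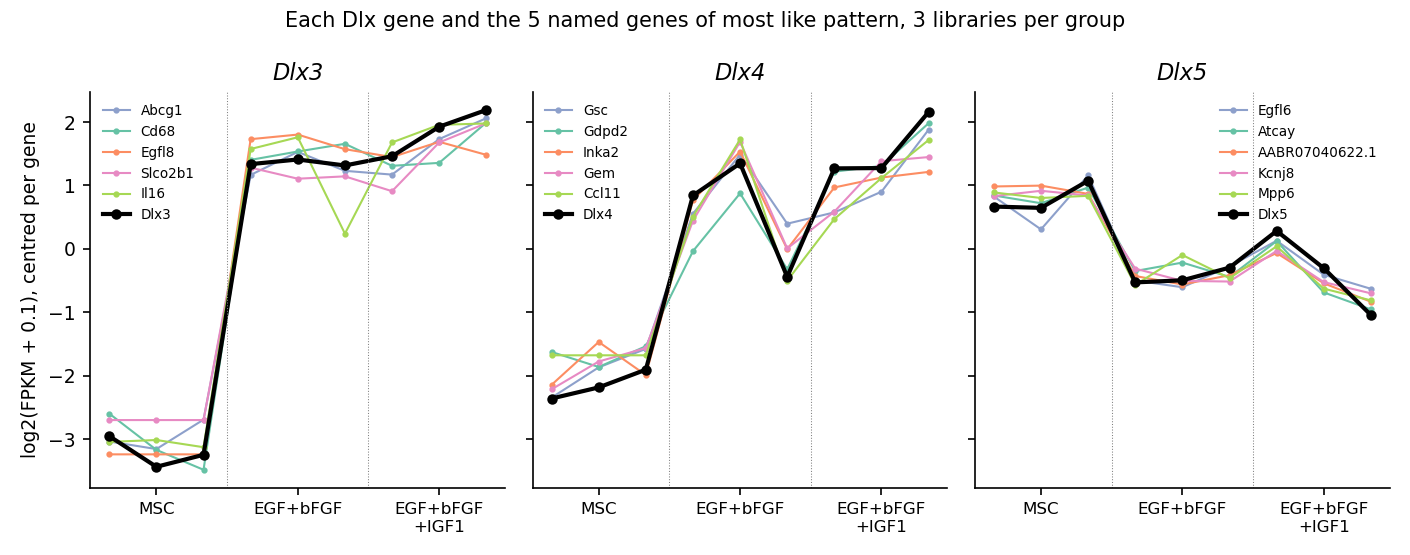
Profiles of log2(FPKM + 0.1), centred on each gene's mean, for Dlx3, Dlx4 and Dlx5 (black) and the 5 named genes of most like pattern for each (colours); the 3 points of a group are its 3 libraries, in no order, and lines only join the points of a gene. The Dlx3 genes step up between MSCs and induced cells, with a dip of Il16 in EGF+bFGF replicate 3, the Dlx4 genes dip in that library too, and the Dlx5 genes step down by a smaller amount.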

How the data were processed

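Stranded mRNA-seq libraries from 300 ng of total RNA per sample were sequenced with single reads. Each deposited file is a Cufflinks assembly of 1 library, in which the authors give the FPKM of every transcript on a linear scale, with a 95% interval and coverage. The score values deposited beside them were not used. The submitters' processing notes name TopHat, Bowtie2, Cufflinks, Cuffdiff, CASAVA 1.8 and bcl2fastq. They name no build. The paper's methods describe another route (STAR, RSEM, DESeq2) on the rat build rn6 with Ensembl annotation, and the contig names of these files are not those of rn6.

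FPKM were added per gene over annotated isoforms and unannotated ones that share exonic bases with them. Library scaling used median-of-ratios size factors, and log2(FPKM + 0.1) was fitted with limma 3.58.1 in R 4.3.3 (trend and robust), for genes with 0.1 FPKM in at least 3 libraries and a transcript of at least 300 bases. NPCs against MSCs used 6 libraries and the comparisons with the IGF1 group all 9. Calls needed an adjusted p (Benjamini-Hochberg, all genes tested) of at most 0.05 and a change of at least 1. The reads behind a value were taken from its interval as (2 FPKM / half-width) squared, where the half-width is the upper limit minus FPKM. Such intervals cover counting error but no spread between replicates. Where a gene has several isoforms they can be wider than counting error, and the reads they imply are then too low. The per-library depth is the median of reads per kilobase and FPKM over loci with a single transcript of at least 4000 bases. Tables used Python 3.11.15 and pandas 2.3.3. The fit was tested on simulated data in which changes were planted only in genes above a set mean level. It does not cover lower genes such as Dlx5.

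Gene names came from the study's tables, which name 2452 of the IDs in the files, so lists are only partly covered. Named genes were the 3 Dlx genes and their family, up to 4 members of each list (called ones first by size, then by FPKM), every named gene beside the loci and the 5 most like patterns. A result that the rule covers is not reported here. Members and lists were chosen with earlier results of these data known. The alternatives were other pseudocounts, filters, scalings, variance priors, isoform sums and sets of libraries; the length-weighted sum was chosen after seeing the data.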

Additional observations from a re-analysis of the deposited data

Results flagged for a closer look

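Unannotated transcripts on the strand of Dlx4, past its 3′ end and outside every gene sum, numbered 25 over the 6 induced libraries (13 in NPCs and 12 in the IGF1 group) and 0 over the 3 MSC libraries. They drew attention because they lie outside the values used in the comparisons and were listed in the induced libraries alone, although 0 listed in MSCs is not a measured level of 0. All unannotated transcripts of a file numbered 28763 to 36570 in MSC libraries and 64618 to 90998 in induced ones. The number depends on how the assembly split the stretch in each library, so the covered bases, 5245 over the NPC libraries and 5643 over the IGF1 libraries, are the steadier description. The difference between the groups was not tested.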

How the results depend on the processing

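Dlx3 kept its direction and its call against MSCs under every alternative that was run, and Dlx4 under every alternative that could be run except 1. With annotated transcripts only, the change of Dlx4 in the IGF1 group against MSCs was 0.38 and lost its call, and its difference between the induced groups turned to -2.00; the annotated transcript holds at most 16.6% of Dlx4 in that group. Dlx5 lost its call with a pseudocount of 1 (-0.52 in NPCs, -0.48 in the IGF1 group) and with annotated transcripts only (-1.20 and -1.14). Its own FPKM are the same with annotated transcripts only. The size factors, the variance prior and the adjustment of p were computed anew from the other genes' sums there. The part of each in the lost call was not tested. Leaving out each library gave, against MSCs, 4.38 to 4.62 in NPCs and 4.84 to 5.21 in the IGF1 group for Dlx3, 2.30 to 3.16 and 3.35 to 3.82 for Dlx4, and -1.41 to -1.11 and -1.55 to -0.89 for Dlx5. Between the induced groups it gave 0.32 to 0.69, 0.48 to 1.33 and -0.24 to 0.41, and Dlx5 changed sign without IGF1 replicate 1 (-0.24). At a filter of 1 FPKM, Dlx5 was not tested at all and Dlx4 not in NPCs against MSCs.

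The number of genes called in NPCs against MSCs, 2931, was 1715 with a pseudocount of 1 and 1199 with annotated transcripts only, and that of the IGF1 group against MSCs, 3034, was 1755 and 1501. Between the induced groups, 3 became 5 with no filter, 5 without a trended prior, 19 with annotated transcripts only, 9 with genes of every length and 2 to 10 on leaving out a library. Without scaling the calls in NPCs split into 1705 higher and 1244 lower, and with quantile normalisation into 1265 and 1402, against 1553 and 1378. In the IGF1 group they split into 1815 and 1262, and into 1269 and 1430, against 1639 and 1395, and the median change without scaling was 0.13. The directions of the Dlx3, Dlx4 and Dlx5 calls were the same under both. The deviations of same-numbered libraries correlated at -0.102 to 0.107, so no pairing by replicate number was seen. With 3 libraries per group such values cannot exclude a pairing by rat. With the number as a replicate block, 2851, 2993 and 1 genes were called and no call of Dlx3, Dlx4 or Dlx5 changed. The depth limits Dlx3 and Dlx4 in MSCs, at 3 to 13 reads a library, and Dlx5 in induced cells, at 8 to 32.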
